A study of Mus musculus with 12 samples.

Results

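Fibroblasts of the heart lay down and remodel the interstitial matrix, and under pressure or hormonal load a part of them leaves a resting state for a matrix-producing one. The 10 genes described here mark the cells and these states. Pdgfra, Tcf21, Gsn and Dpep1 mark cardiac fibroblasts and their resting state, Pi16 and Cd248 mark progenitor-like fibroblasts of the adventitia, and Cthrc1, Fap, Meox1 and Thy1 are markers of activation. They were taken by symbol from the 47729 genes of a count table, through their Ensembl identifiers, and all 10 were found and had enough reads to be tested. Progenitor-like cells positive for Pi16 are held to be a source of more specialised fibroblasts in many tissues. Fibroblasts rich in Cthrc1 are known from scars of the heart and lung, and Meox1 is a transcription factor that switches on in fibroblasts of stressed hearts.

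The counts come from 12 heart libraries of male C57BL/6 mice, 8 weeks old, with 3 libraries in each of 4 groups. Control mice were taken as the saline arm of the design, with saline in subcutaneous osmotic pumps for 28 days, although their sample titles also carry the words Ang II control. The other 3 groups had angiotensin II (Ang II), the pressor peptide of the renin system, from the same kind of pump for the same time. For the last 2 weeks 1 Ang II group had vehicle, 1 had EHP-101 by mouth at 20 mg/kg, and 1 had losartan, which blocks the angiotensin AT1 receptor, at 0.6 g/L of drinking water. Total counts ran from 22155418 to 24040516 per library, and levels are in CPM, counts scaled to a common library size with TMM factors. No source used here says that the 3 libraries of a group came from separate animals, so a p-value measures the spread between libraries, which may be technical. Which part of the heart was taken is not given in the sources used here. In such bulk tissue fewer cells of a type and less RNA per cell cannot be told apart. A gene was called where edgeR's quasi-likelihood p, adjusted by Benjamini and Hochberg over the 15336 genes tested, was under 0.05. Log2 fold changes are given ± SE.

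Control replicate 2 stood apart, with a first principal component score of -84.37 where the other 11 libraries had -12.72 to 32.41. Some of the results it moves are also given without it. The summed level of 14 atrial markers, of which none was at 0 in any library, was 1492 to 4145 CPM in the control group and 3326 to 5269 CPM with Ang II alone. It was 1924 to 2481 CPM under EHP-101 and 888 to 4276 CPM under losartan. Of these 14 markers, 13 had a higher mean with Ang II alone than in the control group, with a median log2 fold change of 0.47. Adipocyte markers had a higher mean too in 6 of 7 tested (median 1.67), epicardial and mesothelial ones in 8 of 9 (0.68) and Schwann cell and nerve ones in 6 of 7 (0.57), while 8 of 10 ventricular cardiomyocyte markers had a lower one (-0.35). The Schwann cell and nerve sums, 33.1 to 45.4 CPM with Ang II alone and 23.2 to 29.8 CPM in the control group, did not overlap. The atrial markers were used as a score in a repeated fit, and the part of the other lists in the marker differences was not tested. Over 9 marker lists of other cell types, edgeR and limma-voom called 0 of 83 tested genes in any comparison. DESeq2 called 0 to 3 per comparison, limma-voom with quality weights 0 to 10, and 7 to 14 had an unadjusted p under 0.05 in edgeR.

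RefSeq promoter windows of GRCm38.p6, 250 bases before to 50 after a start site, were found for 5 of the 10 genes. The 3 below are shown because Pi16 is the gene of these 5 that rose, Dpep1 the one whose group mean was highest under EHP-101, and Tcf21 the one that encodes a helix-loop-helix factor, a class that binds E-box sequences. Capitals mark matches to the motifs searched on both strands, which were AP-1 (TGANTCA), TEAD (GGAATG), one E-box (CAGCTG, the same on both strands), a homeobox motif (TAATTA) and the TATA box (TATAAA). The Pi16 window lies at chr17:29318632-29318931 on the plus strand, inside the longer GENCODE gene, that of Dpep1 at chr8:123185985-123186284 on the plus strand and that of Tcf21 at chr10:22820094-22820393 on the minus strand.
Pi16: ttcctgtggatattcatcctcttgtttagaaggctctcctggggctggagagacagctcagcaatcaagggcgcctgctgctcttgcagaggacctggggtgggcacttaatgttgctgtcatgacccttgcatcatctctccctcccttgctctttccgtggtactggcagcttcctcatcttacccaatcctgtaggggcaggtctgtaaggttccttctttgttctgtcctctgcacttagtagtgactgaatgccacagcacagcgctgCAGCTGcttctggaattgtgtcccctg
Dpep1: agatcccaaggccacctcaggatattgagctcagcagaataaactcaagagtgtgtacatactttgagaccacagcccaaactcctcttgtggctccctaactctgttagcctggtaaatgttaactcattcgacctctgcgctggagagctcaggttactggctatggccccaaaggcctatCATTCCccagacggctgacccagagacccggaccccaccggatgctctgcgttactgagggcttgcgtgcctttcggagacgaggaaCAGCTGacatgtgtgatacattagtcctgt
Tcf21: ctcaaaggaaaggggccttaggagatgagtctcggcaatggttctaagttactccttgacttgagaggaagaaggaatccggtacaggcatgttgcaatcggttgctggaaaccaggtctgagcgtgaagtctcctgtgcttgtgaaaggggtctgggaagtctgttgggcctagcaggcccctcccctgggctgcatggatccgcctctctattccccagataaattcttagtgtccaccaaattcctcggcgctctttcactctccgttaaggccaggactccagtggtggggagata

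The Pi16 and Dpep1 windows each hold an E-box, 23 and 20 bases past the start site, and the Dpep1 window also holds the TEAD letters on its minus strand at position -67. An E-box of these letters is in 16.3% of all 32851 windows and the TEAD letters are in 14.7%. The Tcf21 window holds none of the 5 motifs. Among the windows not shown, those of Gsn hold the E-box letters at positions -53 and -216 from a start site. AP-1 letters are in 7.81% of all windows, the homeobox letters in 5.29% and the TATA box in 13.6%, and none of these was found in the 3 windows shown. A match is a description of the sequence and not evidence of binding.

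Under Ang II alone, the progenitor marker Pi16 and the activation marker Cthrc1 rose, and all 10 genes had a higher mean than in the control group. Pi16 rose about 2-fold, and Cthrc1, nearly silent in control hearts, rose 28.2-fold. The 4 identity markers differed from control by less than 0.7 on the log2 scale and none passed. Cd248, Fap, Meox1 and Thy1 did not pass in edgeR either. Their differences were 0.37, 0.76, 0.84 and 0.36, beside 0.68 for the identity marker Pdgfra. Losartan libraries stood lower than Ang II libraries, without overlap, for Pi16, Cthrc1, Meox1 and Tcf21, and none of these differences passed in edgeR, while other tools called up to 3 of them. Under EHP-101 Pi16 and Cthrc1 were still above control.

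**Figure D1:**
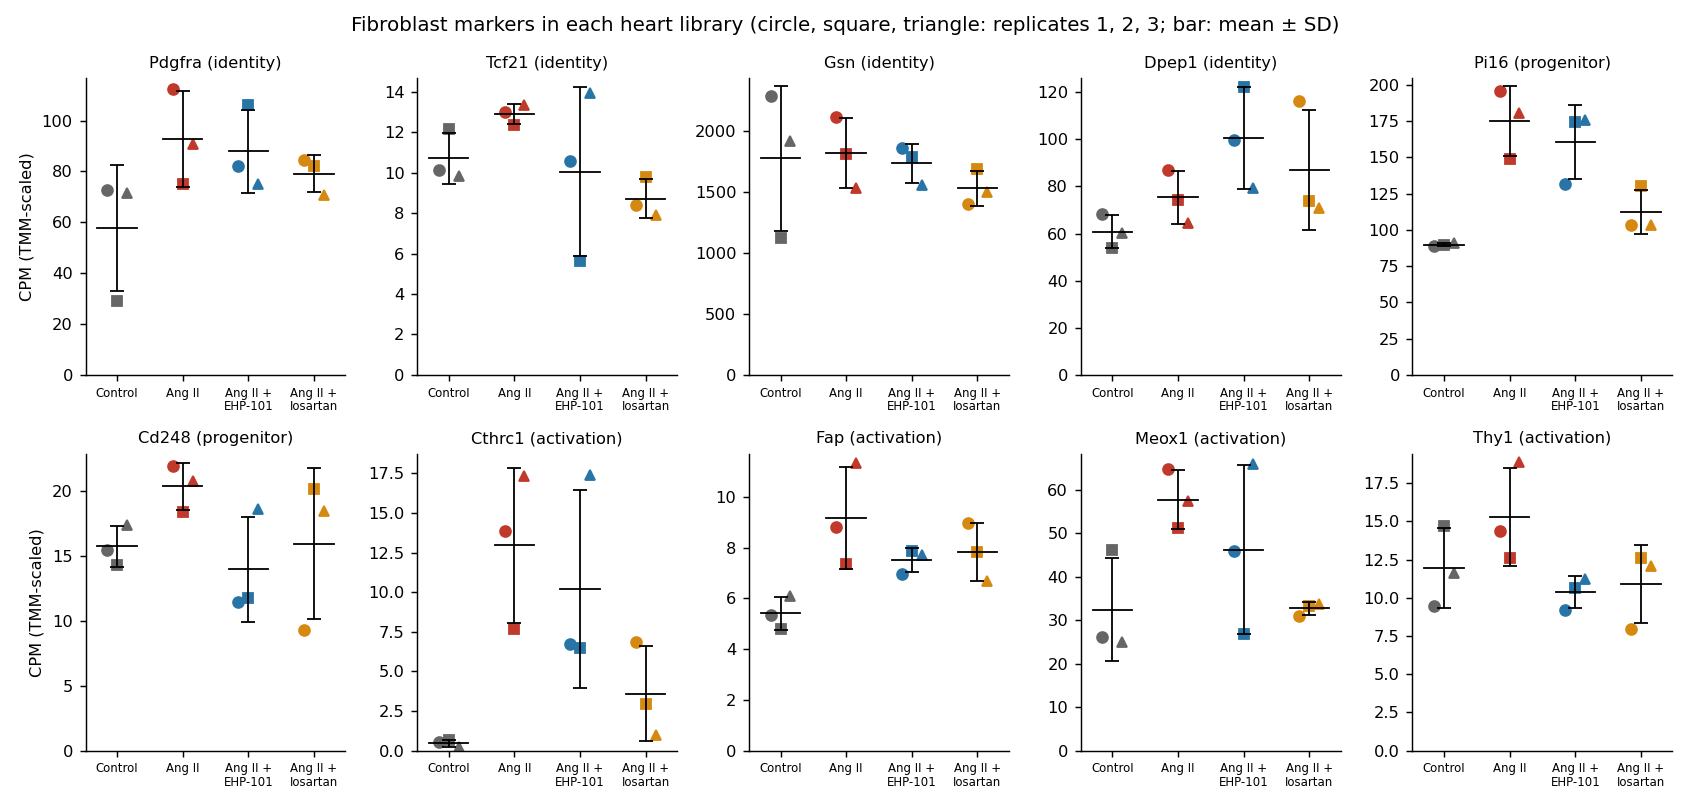
Each panel plots 1 gene, with the level in CPM (TMM-scaled) on the y axis from 0 and the 4 groups on the x axis. Symbols are the 3 libraries of a group and bars the mean ± SD. Pi16 in the 3 control libraries lies between 89.1 and 90.9 CPM, below every Ang II library (149 to 196 CPM), while Gsn overlaps between all groups.

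Among the identity markers, Pdgfra encodes the platelet-derived growth factor receptor alpha that defines most cardiac fibroblasts. It had 72.6, 29.1 and 71.3 CPM in control replicates 1 to 3, 112, 74.9 and 90.9 CPM with Ang II alone, 82.2, 106 and 75.1 CPM under EHP-101 and 84.5, 82.1 and 70.8 CPM under losartan. The Ang II libraries did not overlap the control ones, although the lowest of them was only slightly above control replicates 1 and 3. The log2 fold change of Ang II against control was 0.68 ± 0.28 (adjusted p = 0.251, edgeR), and it was 0.37 without Control replicate 2, the library lowest in Pdgfra.

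Tcf21, a transcription factor needed for fibroblast formation from the epicardium, had 10.2, 12.2 and 9.85 CPM in the control libraries, 13.02, 12.4 and 13.4 CPM with Ang II alone, 10.6, 5.66 and 14.0 CPM under EHP-101, and 8.41, 9.79 and 7.93 CPM under losartan. Every losartan library was below every Ang II and every control library. Losartan against Ang II gave a log2 change of -0.57 ± 0.24 (adjusted p = 0.538, edgeR). The 3 EHP-101 libraries spread over a range that took in all other groups, with replicate 2 the lowest and replicate 3 the highest of all 12 libraries.

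Gsn encodes gelsolin, which severs actin filaments and is abundant in resting fibroblasts but also present in other cells of the heart. Its level was 2281, 1121 and 1918 CPM in control replicates 1 to 3, 2111, 1812 and 1535 CPM with Ang II alone, 1862, 1784 and 1555 CPM under EHP-101 and 1402, 1687 and 1495 CPM under losartan. The groups overlapped in every comparison. Ang II against control was 0.04 ± 0.22 on the log2 scale, and -0.21 ± 0.16 without Control replicate 2.

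Dpep1, a dipeptidase of the cell surface, had its highest group mean under EHP-101, while the other 9 genes had theirs with Ang II alone. Groups next to each other in the order of Dpep1 means overlapped. It had 68.1, 54.0 and 60.2 CPM in the control libraries, 87.1, 74.4 and 64.6 CPM with Ang II alone, 99.7, 122 and 79.3 CPM under EHP-101 and 116, 73.9 and 70.8 CPM under losartan. All libraries of both treated groups lay above all control libraries. EHP-101 against control gave a log2 change of 0.73 ± 0.21 (adjusted p = 0.147, edgeR), and EHP-101 against Ang II alone 0.41 ± 0.21 (adjusted p = 0.765, edgeR).

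Of the progenitor markers, Pi16 encodes a secreted peptidase inhibitor-like protein. Its level was 89.1, 89.3 and 90.9 CPM in the control libraries, a spread of 1.1% of the mean. It was 196, 149 and 181 CPM with Ang II alone, 132, 174 and 176 CPM under EHP-101 and 103, 130 and 104 CPM under losartan. Every infused library was above every control library, and every losartan library was below every Ang II and every EHP-101 library. Ang II against control gave 175 ± 23.8 against 89.8 ± 0.99 CPM (SD, n = 3), a difference of 0.97 ± 0.15 in log2 (edgeR, adjusted p = 0.019). EHP-101 against control gave 0.84 ± 0.15 (edgeR, adjusted p = 0.0395) and losartan against control 0.32 ± 0.15 (adjusted p = 0.456, edgeR). Against Ang II alone the differences were -0.13 ± 0.15 for EHP-101 (adjusted p = 0.955, edgeR) and -0.64 ± 0.15 for losartan (adjusted p = 0.247, edgeR). Exons of Pi16 and of Pdgfra overlap genes of the opposite strand in part. With unstranded libraries their counts may hold reads of those genes.

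The other progenitor marker, Cd248, encodes endosialin, a surface glycoprotein that pericytes also carry. It had 15.5, 14.3 and 17.4 CPM in the control libraries, 21.95, 18.4 and 20.8 CPM with Ang II alone, 11.5, 11.8 and 18.6 CPM under EHP-101 and 9.30, 20.1 and 18.4 CPM under losartan. The Ang II libraries lay above the control libraries without overlap, with a log2 change of 0.37 ± 0.25 (adjusted p = 0.442, edgeR). Under each treatment the libraries split, with 2 low in the EHP-101 group and 1 low in the losartan group. The summed level of 10 mural cell markers, of which none was at 0, ran from 1645 to 1776 CPM with Ang II alone and from 1016 to 1721 CPM in the control group, and its part in the Cd248 difference was not tested.

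Cthrc1, a secreted glycoprotein of collagen-depositing fibroblasts, was the activation marker that changed most. Its level was 0.543, 0.646 and 0.209 CPM in the control libraries, from 5 to 13 reads each. It was 13.9, 7.68 and 17.3 CPM with Ang II alone, 6.73, 6.5 and 17.4 CPM under EHP-101 and 6.88, 2.93 and 0.97 CPM under losartan. Every infused library was above every control library, and all 3 losartan libraries were below all 3 Ang II libraries. Ang II against control gave a log2 change of 4.82 ± 0.73 (adjusted p = 0.015, edgeR), and EHP-101 against control 4.47 ± 0.73, or 22.2-fold (adjusted p = 0.0271, edgeR). Losartan against control was 7.76-fold, 2.96 ± 0.75 on the log2 scale (adjusted p = 0.456, edgeR), and losartan against Ang II alone -1.86 ± 0.58 (adjusted p = 0.357, edgeR).

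Fap encodes fibroblast activation protein, a surface protease. It had 5.35, 4.79 and 6.09 CPM in the control libraries, 8.81, 7.35 and 11.4 CPM with Ang II alone, 6.98, 7.86 and 7.71 CPM under EHP-101 and 8.97, 7.82 and 6.70 CPM under losartan. All 9 infused libraries were above all control libraries, and the 3 infused groups overlapped one another. Ang II against control gave a log2 change of 0.76 ± 0.18 (adjusted p = 0.0979, edgeR), EHP-101 against control 0.47 ± 0.18 (adjusted p = 0.237) and losartan against control 0.53 ± 0.18 (adjusted p = 0.456). With each of the 12 libraries left out in turn, Fap passed in Ang II against control only without Ang II replicate 2 (adjusted p = 0.0479, edgeR). Over these fits the adjusted p reached 0.47 and the log2 fold change ran from 0.59 to 0.89.

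Meox1, a homeobox transcription factor, had 26.2, 46.0 and 24.9 CPM in control replicates 1 to 3. It had 64.7, 51.2 and 57.3 CPM with Ang II alone, 45.9, 26.8 and 65.9 CPM under EHP-101 and 30.9, 33.3 and 33.8 CPM under losartan. The losartan libraries lay close together, above control replicates 1 and 3, below control replicate 2 and below every Ang II library. The log2 fold change was 0.84 ± 0.29 for Ang II against control (adjusted p = 0.199, edgeR), -0.82 ± 0.29 for losartan against Ang II (adjusted p = 0.418, edgeR) and 0.02 ± 0.29 for losartan against control. Without Control replicate 2, the control library highest in Meox1, Ang II against control was 1.18 ± 0.29. With each of the 12 libraries left out in turn, losartan against control ran from -0.13 to 0.36.

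Thy1 encodes a surface glycoprotein that T cells and neurons carry as well as fibroblasts. It had 9.48, 14.7 and 11.6 CPM in the control libraries, 14.4, 12.6 and 18.9 CPM with Ang II alone, 9.18, 10.7 and 11.2 CPM under EHP-101 and 7.95, 12.6 and 12.1 CPM under losartan. Control and Ang II libraries overlapped. Thy1 was the gene whose EHP-101 libraries all lay below the Ang II libraries, with a log2 change of -0.56 ± 0.21 (adjusted p = 0.568, edgeR). The summed level of 8 T cell markers was 8.92 to 10.1 CPM with Ang II alone and 6.78 to 9.54 CPM under EHP-101, with 1 marker at 0 in 1 EHP-101 library. The summed level of 10 macrophage markers was 321 to 402 CPM with Ang II alone and 156 to 294 CPM under EHP-101, without overlap. The part of either list in the Thy1 difference was not tested.

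In the count over all 10 genes, Ang II against control gave 2 called, both higher, where 0.515% of all tested genes were called higher. At an unadjusted p under 0.05 there were 5 of the 10, Pdgfra, Pi16, Cthrc1, Fap and Meox1, against 17.6% of all genes. The Ang II libraries lay above the control ones without overlap for 7 of the 10, all but Gsn, Dpep1 and Thy1, against 12.3% of all genes. The median log2 fold change was 0.53 over the 10 genes, 0.80 over the 4 activation markers and 0.34 over the 6 others, beside -0.001 over all tested genes. DESeq2 called 3 of the 10, Pi16, Cthrc1 and Fap, where it called 2.36% of its tested genes higher. limma-voom with quality weights, which gives less weight to libraries that fit poorly, called 5, with Meox1 and Thy1 besides, where it called 9.69% higher.

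Both calls of Ang II against control depend on single libraries and on the fit. With 1 control library left out, replicate 1, 2 or 3, edgeR's adjusted p of Pi16 became 0.0767, 0.0551 or 0.071. Leaving out Ang II replicate 1 or 3 gave 0.0862 or 0.0986. For Cthrc1 the same omissions gave 0.0876, 0.128 or 0.0952 for the control libraries and 0.056 or 0.069 for the Ang II ones. Pi16 also missed with only the 2 groups fitted (0.0751), and Cthrc1 with no filter on low counts (0.0689) and in limma-voom (0.0596). The log2 fold change stayed between 0.88 and 1.07 for Pi16 and between 4.46 and 5.09 for Cthrc1 with each of the 12 libraries left out in turn. Both passed when the atrial marker score was a covariate, Pi16 at 0.89 ± 0.16 (adjusted p = 0.0408, edgeR) and Cthrc1 at 4.47 ± 0.79 (adjusted p = 0.0446, edgeR).

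**Figure D2:**
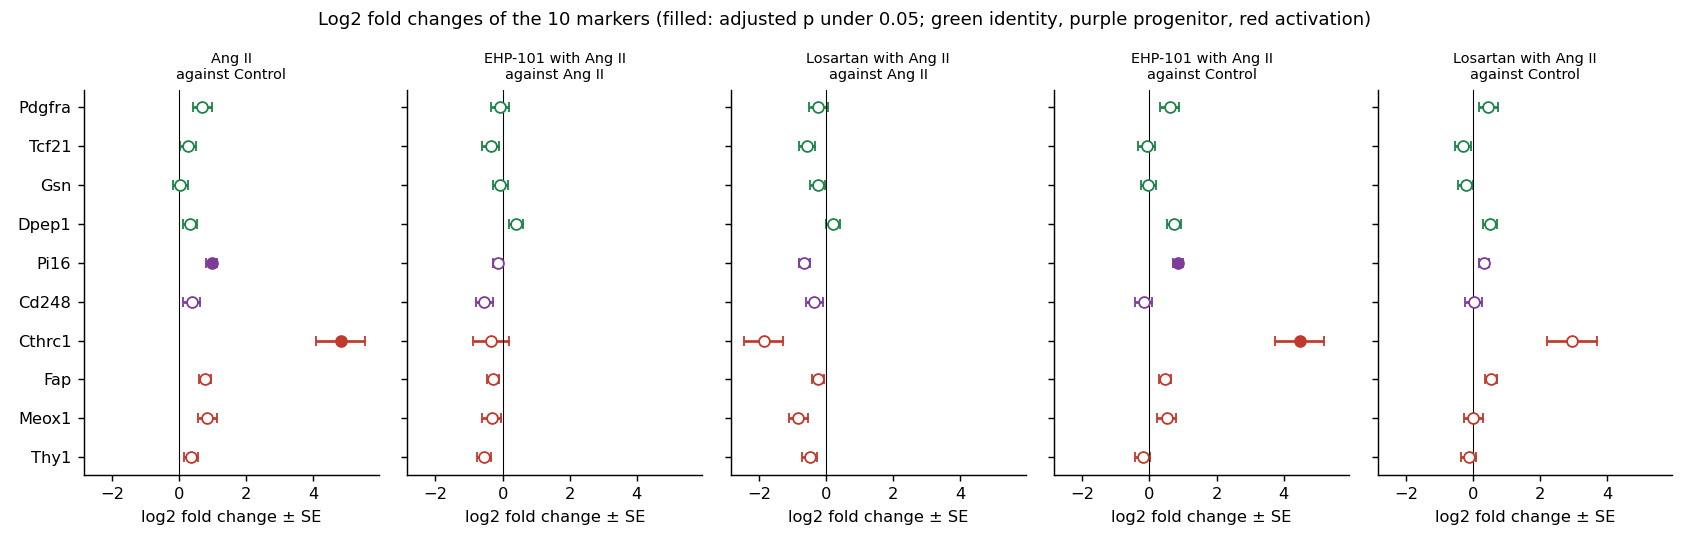
The 5 panels show the log2 fold change of each gene ± SE (x axis) in the 5 comparisons, with filled points for an adjusted p under 0.05. Filled points are Pi16 and Cthrc1 in the comparisons of Ang II with control (0.97 and 4.82) and of EHP-101 with control (0.84 and 4.47), and no other point is filled.

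Losartan given with Ang II was set against Ang II alone. Of the 10 genes, 9 had a lower mean and Dpep1 a higher one, with a median of -0.42 over the 10 beside 0.003 over all tested genes. None passed in edgeR, where 0% of all genes passed, and 5 had an unadjusted p under 0.05 against 8.41% of all genes. The losartan libraries lay below the Ang II libraries without overlap for 4 of the 10, Tcf21, Pi16, Cthrc1 and Meox1, against 10.5% of all genes. DESeq2 called Pi16 lower (log2 fold change -0.64, adjusted p = 0.0136), where it called 0.697% of its tested genes lower, and limma-voom called 0 of the 10. With quality weights 3 were called lower, Pi16, Cthrc1 and Meox1 (adjusted p = 0.0208, 0.0155 and 0.0248), where 3.06% of all genes were. The atrial markers were lower in the same direction, all 14 with a lower mean and a median of -0.95. So were 8 of 10 macrophage markers, with a median of -0.50 and 7 without overlap, of which limma-voom with quality weights called 5. Their summed level was 243 to 336 CPM under losartan, and the part of the macrophage markers in the 9 lower genes was not tested. With the score of the atrial markers as a covariate the log2 fold changes were -0.50 ± 0.18 for Pi16, -1.20 ± 0.80 for Cthrc1, -0.87 ± 0.37 for Meox1 and -0.37 ± 0.30 for Tcf21. Those of Pdgfra and Gsn turned to 0.17 and 0.07. The score was 0.86 to 1.63 with Ang II alone and -2.47 to 0.72 under losartan, without overlap. This fit therefore separates score and treatment poorly.

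Against the saline control, losartan-treated hearts had none of the 10 genes called in edgeR, DESeq2, limma-voom or limma-voom with quality weights, where edgeR called 0% of all genes. Of the 10, 3 had an unadjusted p under 0.05, Dpep1, Cthrc1 and Fap, beside 10.7% of all genes. The losartan libraries were above the control libraries without overlap for 4 genes, Pi16, Dpep1, Cthrc1 and Fap (8.27% of all genes), and below them for 1, Tcf21 (7.09% of all genes).

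EHP-101 given with Ang II was set against Ang II alone. Of the 10 genes 9 had a lower mean, again with Dpep1 as the exception, and the median was -0.31 beside 0 over all tested genes. None passed in edgeR, DESeq2, limma-voom or limma-voom with quality weights (0% of all genes in edgeR), and 1, Thy1, had an unadjusted p under 0.05 beside 7.22% of all genes. Thy1 was also the 1 gene whose groups did not overlap, on the lower side, beside 9.74% of all genes. The coefficient of variation was higher among the EHP-101 libraries than among the Ang II libraries for 6 of the 10 genes. For Tcf21, Cd248, Cthrc1 and Meox1 it was 41.5%, 28.9%, 61.1% and 42.2% against 3.93%, 8.98%, 37.7% and 11.8%, and for Dpep1 and Pi16 21.5% and 15.7% against 15% and 13.6%. For Pdgfra, Gsn, Fap and Thy1 it was lower, at 18.6%, 9.21%, 6.24% and 10.1% against 20.3%, 15.8%, 22.1% and 21.1%. A coefficient of variation over 3 libraries is imprecise, and the share over all genes was not counted. In Tcf21, Cd248, Cthrc1, Meox1 and Pi16 EHP-101 replicate 3 was the highest of its group, and in Dpep1 it was lower than replicates 1 and 2. It was the highest of its group in epicardial and mesothelial markers too, whose sum over 9 markers was 37.8 CPM in it and 13.1 and 6.92 CPM in replicates 1 and 2, with no marker at 0 in these libraries. The Ang II libraries had 33.4 to 48.5 CPM of these markers. All 9 had a lower mean under EHP-101 than with Ang II alone (median -0.87), as had all 10 macrophage markers (median -0.56, 5 without overlap). The part of these lists in the fibroblast markers was not tested. All 14 atrial markers had a lower mean under EHP-101 than with Ang II alone as well. With the atrial score as a covariate the log2 fold change of Cthrc1 went from -0.34 to 0.10. The score was 0.86 to 1.63 with Ang II alone and -1.13 to 0.56 under EHP-101, without overlap. Score and treatment are therefore hard to separate in this fit.

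Against the saline control, EHP-101-treated hearts had 2 of the 10 genes called, Pi16 and Cthrc1, both higher, beside 0.3% of all genes called higher. For 5 genes, Pdgfra, Pi16, Dpep1, Cthrc1 and Fap, the EHP-101 libraries lay above the control libraries without overlap, beside 10.7% of all genes. These calls too rest on single libraries and on the fit. Pi16 missed with library size alone (0.074) and with only the 2 groups fitted (0.177), and Cthrc1 with no filter (0.0903) and in limma-voom (0.093). Both missed with a replicate block. For Pi16 edgeR's adjusted p became 0.12, 0.0623 or 0.0921 when control replicate 1, 2 or 3 was left out. It became 0.0549 or 0.067 for the omission of Ang II replicate 1 or 3, 0.146 or 0.113 for that of EHP-101 replicate 2 or 3, and 0.0504 for that of losartan replicate 2. For Cthrc1 it became 0.119, 0.131 or 0.1 when control replicate 1, 2 or 3 was left out, and 0.0512 or 0.073 when EHP-101 replicate 2 or 3 was. The log2 fold change stayed between 0.77 and 0.96 for Pi16 and between 3.84 and 4.75 for Cthrc1. The comparisons with Ang II alone share its 3 libraries, and those with the control group share its 3 libraries. EHP-101 and losartan were not tested against each other.

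The markers were also read against one another inside each library, which cancels differences that all fibroblast genes of a library share. Cthrc1 was 0.00748, 0.0222 and 0.00292 of the Pdgfra level in the control libraries and 0.123, 0.103 and 0.191 of it with Ang II alone. With EHP-101 this ratio was 0.0818, 0.0611 and 0.232, and with losartan 0.0815, 0.0356 and 0.0137. The lowest losartan library was below control replicate 2 but above control replicates 1 and 3. Pi16 was 1.23, 3.07 and 1.27 times the Pdgfra count rate in the control libraries and 1.74, 1.99 and 1.99 times with Ang II alone. It was 1.60, 1.64 and 2.34 times under EHP-101 and 1.22, 1.58 and 1.46 times under losartan. Control replicate 2 was thus the highest of all 12 libraries in this ratio, with a Pi16 level like that of the other controls and the lowest Pdgfra level. Fap kept to 0.0736 to 0.165 of Pdgfra in the control group and 0.0784 to 0.125 with Ang II alone, ranges that overlap. Thy1 was 0.131 to 0.506 of Pdgfra in the control group and 0.128 to 0.207 with Ang II alone, which overlap too.

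The difference between the mean log2 CPM of the 4 activation markers and that of the 4 identity markers was -4.26, -3.28 and -4.31 in the control libraries and -2.80, -2.93 and -2.28 with Ang II alone. With EHP-101 it was -3.24, -3.28 and -2.58, and with losartan -3.22, -3.32 and -3.58. Every Ang II library was above every control and every losartan library, and control replicate 2 lay within the range of the losartan libraries. Among the activation markers Cthrc1 had by far the largest log2 fold change of Ang II against control, 4.82. Fap, Meox1 and Thy1 had 0.76, 0.84 and 0.36, so the difference follows Cthrc1 above all. The Meox1 to Tcf21 ratio was 2.53 to 3.78 in the control group and 4.13 to 4.97 with Ang II alone. It stayed at 4.34 to 4.74 under EHP-101 while the level of each of these transcription factors varied between the 3 libraries. Under losartan it was 3.41 to 4.26, which overlaps both the control and the Ang II range. The overlap with control came from control replicate 2 (3.78), as replicates 1 and 3 were at 2.58 and 2.53.

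**Figure D3:**
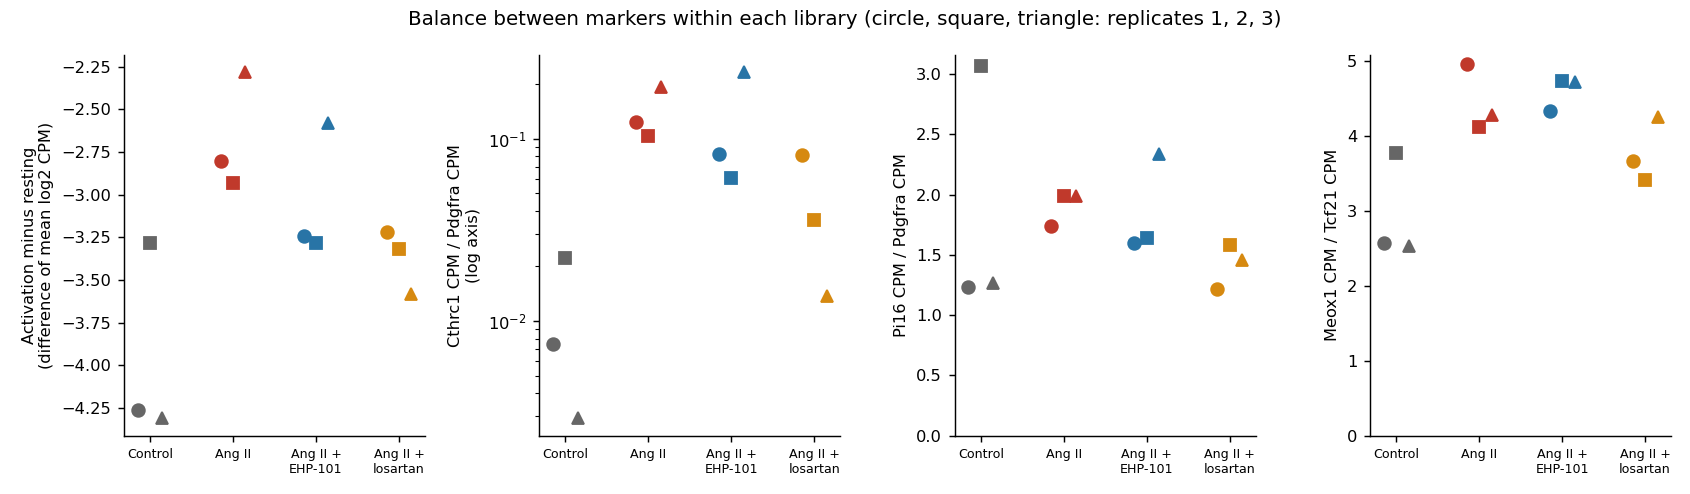
The 4 panels show, for each library by group (x axis), the activation minus identity difference in mean log2 CPM, the Cthrc1 to Pdgfra ratio on a log axis, the Pi16 to Pdgfra ratio and the Meox1 to Tcf21 ratio. The Ang II libraries lie at -2.93 to -2.28 in the first panel, above all control libraries, and control replicate 2 is the highest point of the third panel at 3.07.

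Levels of different genes were compared per kilobase of annotated exon. In the control group Gsn was by far the highest at 562 ± 188 CPM per kilobase, followed by Dpep1 at 24.4 ± 2.84. Meox1 at 14.5 ± 5.31 and Pi16 at 14.1 ± 0.16 overlapped, as did the run of Cd248, Pdgfra, Tcf21 and Thy1 from 6.04 to 3.99, each with its neighbour. Fap at 0.955 ± 0.12 and Cthrc1 at 0.292 ± 0.14 were the lowest and did not overlap. With Ang II alone Cthrc1 stood at 8.13 ± 3.06 CPM per kilobase, between Pdgfra at 9.25 ± 1.88 and Cd248 at 7.81 ± 0.70 and overlapping both, and Pi16 at 27.5 ± 3.74 overlapped Dpep1 at 30.3 ± 4.54. Under losartan Cthrc1 was again below Thy1, at 2.26 ± 1.89, and overlapped it and Fap at 1.38 ± 0.20.

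The genes most like each marker over the 12 libraries were found by Pearson's r of log2 CPM among 12437 other genes. Nearest to Cthrc1 were Aspn, Postn and Lox, all genes of the fibrous matrix, with r of 0.98, 0.98 and 0.97. Nearest to Pi16 were the secreted follistatin-like Fstl1 (0.97), the lysophosphatidic acid receptor Lpar1 (0.97) and the microfibril-associated Mfap4 (0.96). After removal of the 4 group means these 6 genes kept values of 0.82 to 0.91. Meox1 was nearest to Gdf15, a stress-induced member of the TGF-beta superfamily (0.96), Tgif1 (0.93) and Cacnb3 (0.93), and Fap to Sh3bgrl (0.98), Cysltr1 and Pi4k2b (0.93 each). Nearest to Thy1 were Phf11b (0.93), Irf8, a transcription factor of myeloid cells (0.92), and Fhl3 (0.91). Pdgfra was near to Hip1 and Glis3 (0.97 and 0.96), with 0.84 and 0.87 over the 11 libraries without Control replicate 2. Tcf21 was nearest to Nagpa (0.95), Esm1 (0.92) and Fam3a (0.91), Cd248 to Kctd12b (0.93), Ppox and Prdm1 (0.92 each), Dpep1 to Htatsf1, Ubxn7 and Pde1c (0.94, 0.93 and 0.92), and Gsn to Atrnl1, Sphkap and Atp2b2 (0.89, 0.86 and 0.86, or 0.81, 0.73 and 0.76 without Control replicate 2). The libraries share their groups, and these values describe likeness in these 12 libraries alone.

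Other fibroblast genes were read from 4 lists that hold none of the 10. Of 25 further genes of activated fibroblasts, 13 rose with Ang II and none fell, with a median log2 fold change of 1.94, and 24 of the 25 did not overlap with control, where 0.515% of all genes were called higher and 12.3% lay higher without overlap. The count of 13 became 7, 3 or 6 when control replicate 1, 2 or 3 was left out, and 5 for the omission of Ang II replicate 1 or of replicate 3. The gene that overlapped was Scx, a tendon and fibroblast transcription factor, at 0.14 ± 0.34. Cilp, Col8a1, Tnc and Thbs4 had the smallest p-values of this list, with log2 fold changes of 2.93, 1.97, 3.01 and 3.05. Under EHP-101 9 of the 25 were called higher than control, beside 0.3% of all genes. This count became 2 for the omission of any 1 control library and 4 for that of EHP-101 replicate 3. None of the 25 was called under losartan against control in edgeR, where 11 had an unadjusted p under 0.05 beside 10.7% of all genes. DESeq2 called 6 higher there, and 21 of its 13659 tested genes higher. Against Ang II alone all 25 had a lower mean under losartan (median -1.03, 17 without overlap) and under EHP-101 (median -0.29, 5 without overlap), and 0 of them passed in either comparison in edgeR or limma-voom. At an unadjusted p under 0.05 in edgeR there were 21 of the 25 for losartan and 4 for EHP-101, beside 8.41% and 7.22% of all genes. Groups without overlap on the lower side were 10.5% and 9.74% of all genes. For losartan DESeq2 called 10 lower, beside 0.697% of its tested genes, and limma-voom with quality weights 18, beside 3.06%. For EHP-101 both called 0.

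Of 20 genes that mark fibroblasts in general, 2 rose with Ang II and none fell (median 0.71), Col1a2, a chain of type I collagen (1.87 ± 0.35, adjusted p = 0.0381, edgeR), and Medag, an adipogenesis regulator (0.91 ± 0.18, adjusted p = 0.0471, edgeR). In edgeR 0.515% of all genes were called higher. At an unadjusted p under 0.05 there were 14 of the 20, beside 17.6% of all genes. DESeq2 called 10 higher, beside 2.36% of its tested genes, and limma-voom with quality weights 12, beside 9.69%. Both edgeR calls were lost when any 1 control library, Ang II replicate 1 or 3, or EHP-101 replicate 1 or 2 was left out. Without EHP-101 replicate 3, losartan replicate 1 or losartan replicate 2 there was 1, and without losartan replicate 3 there were 4. Medag shares exon bases with an overlapping predicted gene, so its level is uncertain to that extent. Lum, the proteoglycan lumican, had 1.15 ± 0.23 (adjusted p = 0.0525) and Col6a1 1.0 ± 0.24 (adjusted p = 0.1). All 20 had a positive log2 fold change, and all 20 a negative one in losartan against Ang II (median -0.53). There 11 lay lower without overlap, beside 10.5% of all genes. In this comparison edgeR called 0, with 10 at an unadjusted p under 0.05 beside 8.41% of all genes. DESeq2 called 1 lower, beside 0.697% of its tested genes, and limma-voom with quality weights 9, beside 3.06%.

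Of 20 other genes of adventitial progenitor fibroblasts none passed for Ang II against control in edgeR, 9 had an unadjusted p under 0.05 beside 17.6% of all genes, and the median was 0.24. DESeq2 called 2 of the 20 higher, beside 2.36% of its tested genes, and limma-voom with quality weights 7, beside 9.69%. Of the 20 genes, 7 lay above control without overlap, beside 12.3% of all genes, among them Mfap5, a microfibril protein (1.47 ± 0.32, adjusted p = 0.0717, edgeR), Col14a1 (1.67 ± 0.42, adjusted p = 0.114), Cd55 (0.48 ± 0.15, adjusted p = 0.181) and Gfpt2 (0.61 ± 0.20, adjusted p = 0.183). Cd34, Clec3b, Dpp4 and Ly6a, surface or secreted proteins used to sort or name such progenitors, had 0.11, 0.05, 0.27 and -0.26. Pi16 at 0.97 was higher than 18 of the 20 listed genes. Of 23 tested fibroblast transcription factors beside Tcf21 and Meox1 none passed in edgeR, 5 had an unadjusted p under 0.05, a share near the 17.6% of all genes, and the median was 0.15. DESeq2 called 2 of the 23 higher, beside 2.36% of its tested genes, and limma-voom with quality weights 4, beside 9.69%. Runx2 had 1.39 ± 0.33 (adjusted p = 0.0988), Egr2 1.85 ± 0.46 (adjusted p = 0.106), Foxp1 0.53 ± 0.17 (adjusted p = 0.185) and Tbx18 0.62 ± 0.24 (adjusted p = 0.236). Runx2, Foxp1 and Tbx18 share exon bases with other annotated genes.

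**Figure D4:**
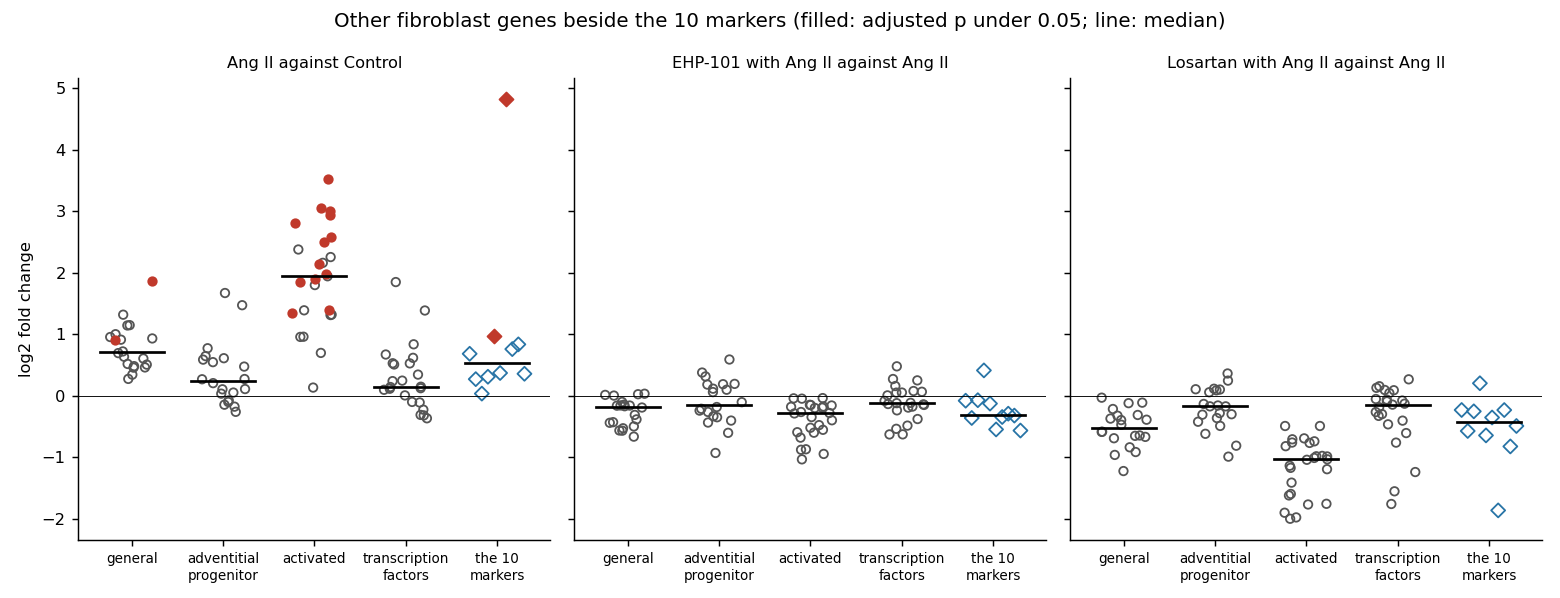
Log2 fold change (y axis) of each gene in the 4 lists and of the 10 markers (diamonds) in 3 comparisons, with filled points for an adjusted p under 0.05 and a line at each median. For Ang II against control the list of activated genes has its median at 1.94 and that of progenitor genes at 0.24, and no point is filled in the comparisons of EHP-101 or losartan with Ang II.

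In GRCm38 with GENCODE M21 all 10 are protein-coding genes. Pi16 (ENSMUSG00000024011) spans chromosome 17 from 29317680 to 29330593 and Cthrc1 (ENSMUSG00000054196) chromosome 15 from 39076932 to 39087121. Pdgfra lies on chromosome 5 from 75152292 to 75198215, Tcf21 on chromosome 10 from 22817281 to 22820174 and Meox1 on chromosome 11 from 101877510 to 101894374. Fap and Gsn lie apart on chromosome 2, from 62500943 to 62574075 and from 35256380 to 35307892. Dpep1 spans chromosome 8 from 123186242 to 123201812, Thy1 chromosome 9 from 44043384 to 44048579 and Cd248 chromosome 19 from 5068078 to 5070682. Exons of Pdgfra overlap 2 predicted genes on the other strand and a microRNA gene, and those of Pi16 overlap 1 gene on the other strand. The other 8 share no exon base with another annotated gene.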

How the data were processed

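The authors deposited a table of raw read counts per gene for 12 heart libraries, with no normalised values. Per the labels, poly(A) RNA was made into libraries with a TruSeq v2 kit, which keeps no strand, and read as single ends. Per the submitters' processing notes fastp 0.20.0, HISAT2 2.1.0, featureCounts 2.0.0 and edgeR 3.30.0 were used on build GRCm38. The counting options are not given in the sources used here.

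The 12 columns were matched to the samples by title. Counts were fitted in R 4.3.3 with edgeR 4.0.16 (filterByExpr, TMM, 1 mean per group over all 12 libraries, robust quasi-likelihood, two-sided), which left 15336 genes. The SE of a log2 fold change is its size divided by the square root of the test's F. Exon lengths, positions and overlaps came from GENCODE M21 and promoter windows from RefSeq (GRCm38.p6). Log2 CPM for scores and likeness had a prior count of 2.

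The fit was tested on simulated data with known changes. The 10 markers, the gene lists and the tests were chosen with earlier results of these data known. Named list genes are those with the smallest p, up to 4 a list and comparison, and the 3 most like genes per marker have a mean of at least 1 CPM and are neither predicted genes nor pseudogenes. One of these genes is not reported here. Scx, Cd34, Clec3b, Dpp4 and Ly6a were named after their values were seen. Markers of 9 other cell types were read beside them. As alternatives the fit was repeated with RLE factors, with no scaling beyond library size, without the filter or with a mean of at least 5 CPM, with a replicate block, with the atrial score as a covariate, on only the 2 groups compared and with each library left out. The counts were also tested with limma-voom (limma 3.58.1), plain and with quality weights, and with DESeq2 1.42.0. A fit that leaves out a library pools the spread over all groups. The likeness without Control replicate 2 and within groups, and the lists with each library left out, were added after seeing the data.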

Additional observations from a re-analysis of the deposited data

How the results depend on the processing

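For Ang II against control, 2 of the 10 markers and 83 of all genes were called. The count of markers was 1 with no filter on low counts (Pi16; Cthrc1 at an adjusted p of 0.0689), 1 with only the 2 groups compared (Cthrc1; Pi16 at 0.0751), 1 in limma-voom (Pi16; Cthrc1 at 0.0596) and 5 with quality weights. The count of all genes was 167 with no filter, 48 with the atrial score, 20 with only the 2 groups, 505 in DESeq2, 51 in limma-voom and 2617 with quality weights. Leaving out 1 library gave 0 to 3 markers and 8 to 151 genes, the most without Ang II replicate 2. For EHP-101 against control, 2 markers and 61 genes were called. Library size alone gave 1 marker (Cthrc1) and 22 genes, no filter 1 (Pi16) and 158, only the 2 groups 1 (Cthrc1) and 14, and limma-voom 1 marker (Pi16). The atrial score gave 230 genes, DESeq2 492 and quality weights 477, and leaving out 1 library gave 0 to 2 markers and 5 to 62 genes. Of these genes 46 were higher and 15 lower, against 21 and 1 with library size alone. For EHP-101 against Ang II no gene was called, against 10 with no filter, 3 with only the 2 groups and 60 in DESeq2, and no marker in any of them. For losartan against Ang II no gene was called, against 30 with no filter, 1 with only the 2 groups, 108 in DESeq2 (1 marker) and 598 with quality weights (3 markers). Leaving out 1 library gave 0 to 3 genes there. For losartan against control, DESeq2 called 22 genes and quality weights 3, with no marker. The cause of these shifts was not tested. Library size alone moved the median of all genes by 0.17 for Ang II against control, by -0.149 for EHP-101 and by -0.118 for losartan against Ang II, and turned the direction of none of the 10 markers.

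Directions turned for genes that were not called. The atrial score did not overlap between Ang II alone and either treated group, so fits with it separate score and treatment poorly there. With the atrial score as a covariate, log2 fold changes became -0.1 for Gsn in Ang II against control, 0.24 for Pdgfra, 0.18 for Gsn and 0.1 for Cthrc1 in EHP-101 against Ang II, 0.17 for Pdgfra and 0.07 for Gsn in losartan against Ang II, and 0.08 for Gsn in EHP-101 against control. With quality weights they became -0.31 for Gsn in Ang II against control, and 0.02 and 0.26 for Thy1 in EHP-101 and losartan against control. In limma-voom they became 0.03 for Gsn in EHP-101 and -0.05 for Cd248 in losartan against control. Leaving out 1 library at a time gave -0.21 to 0.26 for Gsn in Ang II against control. In EHP-101 against Ang II it gave -0.24 to 0.09 for Pdgfra, -0.18 to 0.06 for Gsn and -0.23 to 0 for Pi16, and in losartan against Ang II -0.06 to 0.33 for Dpep1. In EHP-101 against control it gave -0.28 to 0.19 for Gsn and -0.4 to 0.2 for Tcf21. In losartan against control it gave -0.45 to 0.01 for Gsn, -0.13 to 0.36 for Meox1, -0.18 to 0.29 for Cd248 and -0.27 to 0.05 for Thy1.

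Replicate numbers are not stated to pair the libraries. Of 18 same-numbered pairs, 4 correlated over 0.1 (range -0.327 to 0.33), and a library correlated best with its own number in 13 of 36 checks. These correlations gave no clear sign of a pairing and cannot exclude one. The replicate block gave 2 markers and 57 genes for Ang II against control and 0 markers and 36 genes for EHP-101 against control (Pi16 at an adjusted p of 0.0759, Cthrc1 at 0.0626), and turned Cd248 in losartan against control to -0.01. With 3 libraries a group, an exact permutation test of 1 gene cannot go below 0.1. Cthrc1 had 5 to 13 reads in the control libraries, so its fold against control is imprecise.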
